A study of Mus musculus with 12 samples.

Results

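Ventral spinal cord profiled by bulk RNA-seq was examined for 10 genes that mark microglia and other macrophages, *Cx3cr1*, *Csf1r*, *Aif1*, *P2ry12*, *Trem2*, *Tyrobp*, *C1qa*, *C1qb*, *C1qc*, and *Fcrls*. They were taken as a named list, found by NCBI Gene identifier among the 45777 genes in the deposited tables, and all 10 had values. The tissue came from mouse embryos at E12.5, dissected at the brachial and lumbar levels and trimmed around *Hb9::GFP*, a transgene that labels motor neurons (MNs) through the *Hb9* promoter. *Isl2* encodes a LIM homeodomain transcription factor of postmitotic MNs. The controls were heterozygotes (*Isl2* +/-, Het) and the mutants carried 2 null alleles (*Isl2* -/-, KO), so every embryo lacked at least 1 functional copy and no wild-type library was included. Each of the 4 groups (brachial Het, brachial KO, lumbar Het, and lumbar KO) had 3 libraries, for 12 in all. The study was directed at MN genes, and it compared the genotypes at each level.

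Microglia are the resident macrophages of the central nervous system. They descend from yolk sac precursors that enter the neural tube while neurons are still being born, and they are known for engulfing dying cells and for surveying the tissue with motile processes. Csf1r, the receptor for Csf1 and IL-34, is needed for their survival. Cx3cr1 binds the neuronal chemokine fractalkine, P2ry12 senses ADP released by injured cells, and Fcrls is an Fc receptor-like surface protein of microglia. Trem2 is a receptor for lipids and lipoproteins that signals through the adaptor Tyrobp. C1qa, C1qb, and C1qc are the chains of C1q, the recognition molecule that starts the classical complement cascade. Aif1, also called Iba1, is a calcium-binding protein of macrophages. In whole tissue these genes report a small population among many neurons and progenitors, and fewer such cells cannot be told apart from less RNA of each gene per cell.

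The 3 C1q genes lie side by side on chromosome 4 (mm10), on the minus strand, within 18.7 kb, with 3600 bases between *C1qb* and *C1qc* and 2979 between *C1qc* and *C1qa*. PU.1, encoded by *Spi1*, is the transcription factor that macrophages require, and it binds purine-rich sites around a GGAA core. The bases before the start site used in the RefSeq promoter table (GRCm38.p6) are printed for *P2ry12*, *Fcrls*, *C1qb*, *C1qc*, and *Cx3cr1*, which are all the members past the threshold between axial levels that have a window in the RefSeq promoter table. Each sequence is 250 bases of the minus strand, read 5′ to 3′ toward that start. The annotated gene begins further upstream for *Fcrls*, where 241 of the 250 bases with both motifs lie within the gene span, and for *C1qc*, where 22 bases nearest the start do. Capitals mark the letters GAGGAA or GGAAGT, or their reverse complements TTCCTC and ACTTCC, which overlap where they share bases:
*P2ry12* (chr3:59262986-59263235): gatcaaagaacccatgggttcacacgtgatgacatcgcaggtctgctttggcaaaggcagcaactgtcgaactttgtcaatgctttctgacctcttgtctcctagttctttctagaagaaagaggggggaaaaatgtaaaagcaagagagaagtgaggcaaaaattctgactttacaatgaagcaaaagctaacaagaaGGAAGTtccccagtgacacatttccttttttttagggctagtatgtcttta
*Fcrls* (chr3:87263525-87263774): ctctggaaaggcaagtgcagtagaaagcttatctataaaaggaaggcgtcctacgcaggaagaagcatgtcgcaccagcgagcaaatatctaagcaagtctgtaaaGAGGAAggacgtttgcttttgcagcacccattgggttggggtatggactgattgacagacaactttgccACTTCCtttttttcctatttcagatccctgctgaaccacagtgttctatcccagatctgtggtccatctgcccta
*C1qb* (chr4:136886201-136886450): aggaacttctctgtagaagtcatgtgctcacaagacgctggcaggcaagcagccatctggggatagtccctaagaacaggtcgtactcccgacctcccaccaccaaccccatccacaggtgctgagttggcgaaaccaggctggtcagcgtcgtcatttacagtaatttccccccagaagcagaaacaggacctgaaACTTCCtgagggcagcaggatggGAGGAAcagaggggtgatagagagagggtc
*C1qc* (chr4:136892915-136893164): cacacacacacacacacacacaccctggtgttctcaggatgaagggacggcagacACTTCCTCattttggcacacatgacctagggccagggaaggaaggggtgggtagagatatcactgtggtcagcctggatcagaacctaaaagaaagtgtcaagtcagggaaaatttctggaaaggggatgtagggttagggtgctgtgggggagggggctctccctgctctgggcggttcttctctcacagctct
*Cx3cr1* (chr9:120068297-120068546): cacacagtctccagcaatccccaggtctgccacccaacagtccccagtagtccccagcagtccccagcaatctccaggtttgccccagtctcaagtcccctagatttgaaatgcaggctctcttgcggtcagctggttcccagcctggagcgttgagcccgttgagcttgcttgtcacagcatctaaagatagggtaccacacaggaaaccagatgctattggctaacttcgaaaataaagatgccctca

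The RefSeq promoter table held a window for 7 of the 10 genes, and not for *Csf1r*, *Tyrobp*, and *C1qa*. On either strand of these 250 bases, GAGGAA was present in 5 of the 7 windows, against 23.3% of 32851 windows of the same length, and GGAAGT in 4 of the 7, against 19.7%. At least 1 of the 2 was present in 6 of the 7, against 36.7% of all windows. *C1qb* and *Fcrls* each held both motifs apart from each other, *C1qc* held both within 1 overlapping match, and *P2ry12* held GGAAGT alone. *Trem2* and *Aif1* held GAGGAA alone, and *Cx3cr1*, printed without capitals, held neither. For *Aif1*, the 31 bases nearest the start lie within the gene span, and its match is among them. Matches of this kind are letters in a window and no binding was measured.

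The tables gave TPM, a length-scaled share of each library's RNA, which was rescaled between libraries here and is called rescaled TPM. Depth, estimated as coverage divided by FPKM, was 4.48 to 6.64 Gb of aligned bases, and 22983 to 24191 genes had values above 0. *Isl2* itself was at a rescaled TPM of 8.89 ± 0.713 (SD, n = 3) in brachial Het and 5.91 ± 1.40 in brachial KO, and at 9.36 ± 0.937 in lumbar Het and 7.34 ± 0.850 in lumbar KO. All KO libraries lay below all Het libraries of the same level, and the gene-level value does not tell which exons gave the remaining reads. The design names 3 animals of each genotype. The Y-linked gene *Ddx3y* was at 0 in 1 of 3 brachial Het, 2 of 3 lumbar Het, 1 of 3 brachial KO, and 1 of 3 lumbar KO libraries, so the brachial and lumbar Het libraries cannot all have come from the same 3 embryos. The same number was given to libraries of different sex in 1 Het pair and 2 KO pairs. The numbers were therefore not used to pair levels. Whether libraries of 1 group came from separate litters is not stated, and p-values measure the spread between these libraries.

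All 10 genes were detected in every library at low levels. Apart from the C1q cluster none are neighbours, with *P2ry12* and *Fcrls* far apart on chromosome 3, *Aif1* and *Trem2* far apart on chromosome 17, *Cx3cr1* on chromosome 9, *Tyrobp* on chromosome 7, and *Csf1r* on chromosome 18. Averaged over 12 libraries, *C1qa* was highest at a rescaled TPM of 5.84, followed by *C1qc* at 4.88, *C1qb* at 4.41, *Tyrobp* at 3.94, *Fcrls* at 2.79, *Csf1r* at 2.51, *P2ry12* at 2.41, *Cx3cr1* at 2.21, *Trem2* at 1.3, and *Aif1* at 1.25. The median of the genes tested was 11.3, and the 10 genes exceeded only 14% (*Aif1*) to 36.6% (*C1qa*) of them. Because TPM is scaled by length, genes can be ordered within a library. *C1qa* exceeded *C1qc* in 11 of 12 libraries, *Tyrobp* exceeded *Fcrls* in 12 of 12, *Fcrls* exceeded *Csf1r* in 10 of 12, and *Cx3cr1* exceeded *Trem2* in 11 of 12. The other neighbours changed order among libraries, with *C1qc* above *C1qb* in 6 of 12, *C1qb* above *Tyrobp* in 7, *Csf1r* above *P2ry12* in 6, *P2ry12* above *Cx3cr1* in 7, and *Trem2* above *Aif1* in 6. The C1q genes together held 44.4% to 53.8% of the summed level in each library. *Tyrobp*, the adaptor, was 2.11 to 5.62 times as abundant as its receptor partner *Trem2*. Mean per-base coverage ran from 1.28 for *Trem2* in its lowest library to 29.4 for *C1qa* in its highest, so single values of *Trem2* and *Aif1* rest on few reads.

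Of the 10 genes, 7 were past the threshold given below and lower at the lumbar than at the brachial level, and *Trem2*, *Tyrobp*, and *Aif1* did not pass. The 10 genes summed to a rescaled TPM of 35.7, 41.9, and 37.2 in the brachial Het libraries and 37.8, 51.7, and 30.6 in the brachial KO libraries. At the lumbar level the sums were 24.0, 29.1, and 23.8 in Het and 21.2, 15.6, and 30.2 in KO. Every lumbar sum lay below every brachial sum, a description that was not tested. The means were 39.1 ± 7.16 for brachial and 24.0 ± 5.33 for lumbar libraries (SD, n = 6).

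**Figure D1:**
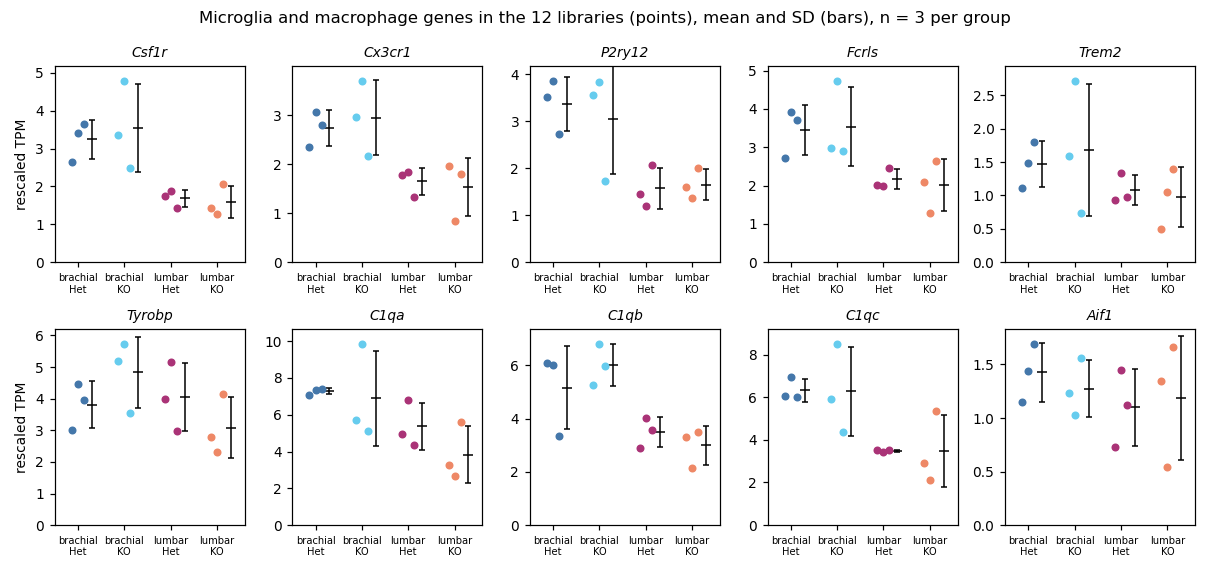
Rescaled TPM of each of the 10 genes in the 12 libraries, one panel per gene, with level and genotype on the horizontal axis. Points are libraries and the bars beside them give the mean and SD of 3 libraries. For *Csf1r*, *Cx3cr1*, and *Fcrls* all 6 lumbar libraries lie below all 6 brachial libraries, while *Aif1* and *Tyrobp* overlap widely.

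All 10 estimates for lumbar against brachial were below 0, against 47.9% of all 16736 genes tested. Their median log2 difference was −0.74, whereas the median of all genes tested was 0.01. A gene was counted as past the threshold at a log2 difference beyond 0.5 with an unadjusted p under 0.05. By this rule 7 of 10 were lower at the lumbar level and none was higher, where 5.97% of all genes were lower and 4.4% were higher. The same 7 had an adjusted p under 0.05 (limma, Benjamini-Hochberg over all genes), where 9.65% of all genes were lower by that rule. In 3 of 10 the 6 lumbar libraries did not overlap the 6 brachial libraries, against 4.68% of all genes in that direction. The genes are not independent of one another, since macrophages express all of them and the C1q genes are neighbours.

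**Figure D2:**
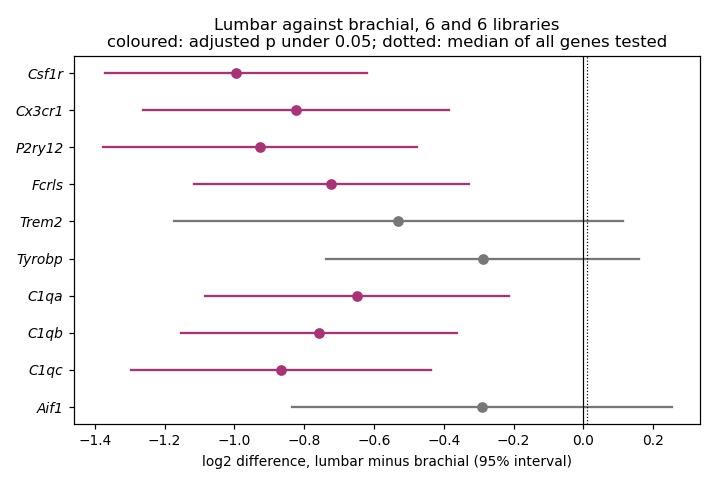
Log2 difference of each gene between 6 lumbar and 6 brachial libraries, with its 95% interval from limma. The coloured genes, those with an adjusted p under 0.05, run from −1.0 for *Csf1r* to −0.65 for *C1qa*, and the intervals of *Trem2*, *Tyrobp*, and *Aif1* include 0.

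Among the surface receptors, *Csf1r* differed most. Its rescaled TPM was 2.65, 3.41, and 3.66 in brachial Het, 3.37, 4.79, and 2.48 in brachial KO, 1.74, 1.88, and 1.43 in lumbar Het, and 1.43, 1.26, and 2.07 in lumbar KO. The highest lumbar value was below the lowest brachial value. The level was 1.99-fold lower at the lumbar level (log2 difference −1.0 ± 0.17 SE, adjusted p = 0.00256).

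*Cx3cr1* was at 2.34, 3.05, and 2.81 in brachial Het, 2.97, 3.70, and 2.17 in brachial KO, 1.78, 1.84, and 1.34 in lumbar Het, and 1.96, 0.847, and 1.79 in lumbar KO. The 2 levels did not overlap, and lumbar KO library 2 held less than any other. The fractalkine receptor was 1.77-fold lower at the lumbar level (−0.82 ± 0.20, adjusted p = 0.0145).

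*P2ry12* was at 3.51, 3.86, and 2.74 in brachial Het, 3.56, 3.84, and 1.72 in brachial KO, 1.45, 1.20, and 2.06 in lumbar Het, and 1.59, 1.36, and 2.0 in lumbar KO. Only brachial KO library 3 fell among the lumbar values. The purinergic receptor was 1.90-fold lower at the lumbar level (−0.93 ± 0.21, adjusted p = 0.00912), and the log2 difference was −1.10 without that library.

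*Fcrls* was at 2.72, 3.93, and 3.72 in brachial Het, 2.99, 4.73, and 2.90 in brachial KO, 2.02, 2.0, and 2.46 in lumbar Het, and 2.11, 1.3, and 2.64 in lumbar KO. The 2 levels were separated by a narrow gap between 2.64 and 2.72. The difference was 1.65-fold (−0.72 ± 0.18, adjusted p = 0.0163).

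The C1q chains were lower at the lumbar level as well. *C1qa* was at 7.09, 7.32, and 7.41 in brachial Het, 5.74, 9.86, and 5.10 in brachial KO, 4.96, 6.79, and 4.35 in lumbar Het, and 3.26, 2.65, and 5.59 in lumbar KO. Its Het libraries did not overlap between levels, its KO libraries did, and the fitted difference was 1.57-fold (−0.65 ± 0.20, adjusted p = 0.0409). *C1qb* was at 6.09, 6.01, and 3.36 in brachial Het, 5.25, 6.80, and 5.99 in brachial KO, 2.89, 4.03, and 3.57 in lumbar Het, and 3.32, 2.15, and 3.50 in lumbar KO. Its KO libraries did not overlap between levels, whereas brachial Het library 3 lay among the lumbar values, and the difference was 1.69-fold (−0.76 ± 0.18, adjusted p = 0.0131). *C1qc* was at 6.03, 6.94, and 6.0 in brachial Het, 5.93, 8.5, and 4.36 in brachial KO, 3.50, 3.41, and 3.50 in lumbar Het, and 2.89, 2.13, and 5.35 in lumbar KO. Lumbar KO library 3 reached the brachial range and the other lumbar libraries did not, with a difference of 1.82-fold (−0.87 ± 0.20, adjusted p = 0.0101).

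The other members did not pass the threshold. *Trem2* ranged from 0.737 to 2.72 at the brachial level (median 1.54) and from 0.495 to 1.39 at the lumbar level (median 1.02), with a log2 difference of −0.53 (95% interval −1.17 to 0.11, adjusted p = 0.240). Without brachial KO library 3, the library in which *Trem2* was lowest at that level, the difference was −0.72 and passed the threshold, and without brachial KO library 2 it was −0.33. *Tyrobp* ranged from 3.00 to 5.74 (median 4.22) and from 2.31 to 5.14 (median 3.50), with a difference of −0.29 (−0.74 to 0.16, adjusted p = 0.369), and without lumbar KO library 2 it was −0.17. *Aif1* ranged from 1.03 to 1.69 (median 1.34) and from 0.545 to 1.66 (median 1.24), with a difference of −0.29 (−0.83 to 0.25, adjusted p = 0.465), and without lumbar KO library 2 it was −0.11. These intervals include 0. That of *Trem2* also includes the estimates of all the genes that passed. The interval of *Aif1* includes those of *Cx3cr1*, *C1qb*, *Fcrls*, and *C1qa*. The interval of *Tyrobp* includes those of *C1qa* and *Fcrls*, though not those of the other genes that passed.

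Within each genotype the direction was kept by all but 1 gene. Among Het libraries alone, 5 of 10 were past the threshold and lower at the lumbar level (4.28% of all genes were), namely *P2ry12* (−1.07), *Csf1r* (−0.90), *C1qc* (−0.84), *Cx3cr1* (−0.70), and *Fcrls* (−0.64). *C1qa* (−0.46) and *C1qb* (−0.51) were no longer past it, and *Tyrobp* was at 0.07. Among KO libraries alone, all 10 estimates were below 0 and 8 of 10 were past the threshold (6.72% of all genes were), from *Csf1r* at −1.09 to *Tyrobp* at −0.64, with *Trem2* (−0.65) and *Aif1* (−0.20) not past it. At this size, 3 libraries against 3, an adjusted p under 0.05 was reached by 2 of the 10 in Het (*Csf1r* and *C1qc*, where 2.03% of all genes were lower by that rule) and by none in KO (0.934% of all genes, limma). The KO libraries of both levels hold 2 male embryos and 1 female, so the sex of the embryos, unequal between levels in Het, was balanced there.

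The KO libraries numbered 2 stood at the extremes. Brachial KO library 2 had the highest value of all 12 libraries for 8 of the 10 genes, all but *Aif1* and *P2ry12*, and lumbar KO library 2 had the lowest value for 8 of the 10, all but *P2ry12* and *Trem2*. Brachial KO library 3, the shallowest, was the lowest brachial library for 6 of 10. With both of the KO libraries numbered 2 left out, 6 of 10 genes remained past the threshold (4.42% of all genes were lower), 5 with an adjusted p under 0.05 (5.52% of all genes), and the median log2 difference was −0.55. *C1qa* was the gene lost, at −0.41. Leaving out 1 library at a time gave 7 or 8 genes.

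**Figure D3:**
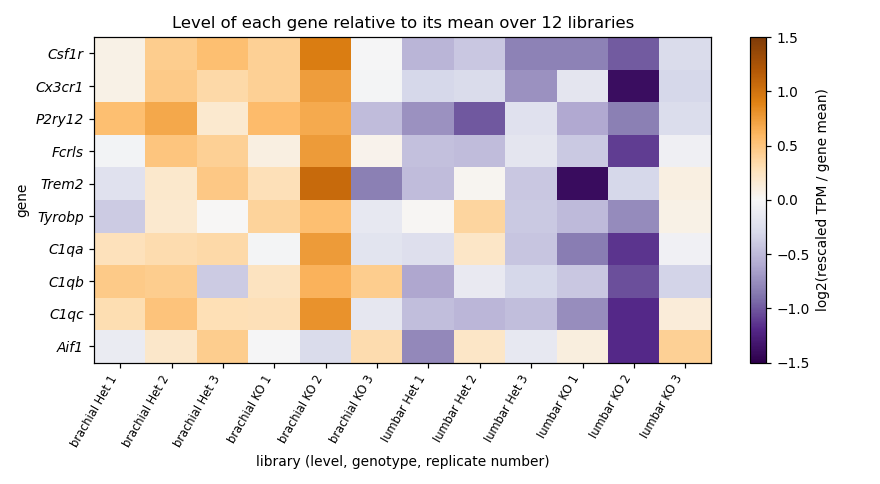
Level of each gene (vertical axis) in each library (horizontal axis), as the log2 of its rescaled TPM over its mean across 12 libraries. Brachial KO library 2 is the highest column for 8 of 10 genes and lumbar KO library 2 the lowest for 8 of 10.

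Loss of *Isl2* was not accompanied by a change in these genes that passed the threshold. In brachial libraries 0 of 10 were past it, where 3.1% of all 16935 genes were, and in lumbar libraries 0 of 10 were, where 1.77% of all 16511 genes were. With shares this low, a count of 0 among 10 is close to the background. At an unadjusted p under 0.05 alone the count was also 0 of 10 at both levels, against 13.8% and 4.88% of all genes. An adjusted p under 0.05 was reached by 1 gene in all (0.0059%) in brachial libraries and by 0 in lumbar libraries (limma).

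At the brachial level the largest estimate was for *Tyrobp*, at 3.00, 4.46, and 3.97 in Het and 5.2, 5.74, and 3.56 in KO (log2 difference 0.32, 95% interval −0.20 to 0.85, adjusted p = 0.483). The 2 genotypes overlapped, and only without brachial KO library 3 did *Tyrobp* pass the threshold, at 0.53, whereas it was at 0.17 without brachial Het library 1 and 0.19 without brachial KO library 2. The other brachial estimates ran from −0.21 for *P2ry12* to 0.26 for *C1qb*, with 4 of 10 below 0, against 51.8% of all genes, and a median of 0.03 over the 10 genes and −0.01 over all genes tested. The intervals were widest for *Trem2*, from −0.97 to 1.05, and narrowest for *Cx3cr1*, from −0.44 to 0.60, which is 0.736 to 1.52 as a ratio of KO to Het. The sign of some estimates changed with the scaling. With TPM as deposited, where the median of all genes was 0.16, *Aif1* went from −0.15 to 0.01, *C1qa* from −0.14 to 0.04, and *C1qc* from −0.06 to 0.11. With quantile normalization *Trem2* went from 0.04 to −0.01 and *Fcrls* from 0.01 to −0.04.

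At the lumbar level 8 of 10 estimates were below 0, against 52.6% of all genes. The largest was for *C1qa*, at 4.96, 6.79, and 4.35 in Het and 3.26, 2.65, and 5.59 in KO (−0.52, 95% interval −1.18 to 0.14, adjusted p = 0.999 in limma), followed by *Tyrobp* at −0.39 (−1.01 to 0.23). The genotypes overlapped for both genes, because lumbar KO library 3 was higher than the other KO libraries. Without that library both passed the threshold, *C1qa* at −0.82 and *Tyrobp* at −0.62, and the same 2 genes passed it with the sex of the embryo as a term, at −0.72 and −0.57, each with an adjusted p above 0.9. In the other direction, *C1qa* was at −0.30 without lumbar KO library 2 and *Tyrobp* at −0.20 without lumbar Het library 2. Without lumbar KO library 2, 4 of 10 estimates were below 0. The remaining estimates ran from −0.24 for *C1qb* to 0.09 for *P2ry12*. *Csf1r*, which differed most between levels, was at −0.10 here (−0.67 to 0.46).

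**Figure D4:**
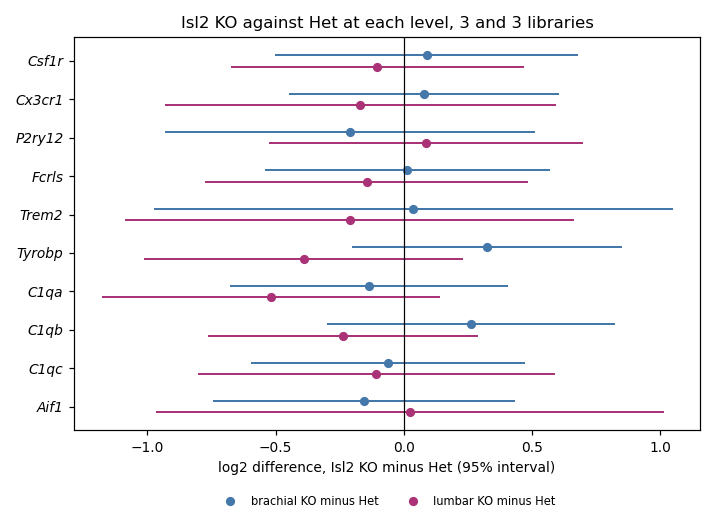
Log2 difference between *Isl2* KO and Het for each gene at the brachial and lumbar levels, 3 libraries against 3, with 95% intervals from limma. Every interval includes 0, and the estimates run from −0.52 for *C1qa* at the lumbar level to 0.32 for *Tyrobp* at the brachial level.

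The difference between the 2 genotype effects was tested as an interaction over 12 libraries. None of the 10 genes passed the threshold, where 2.04% of all genes did, and none had an unadjusted p under 0.05, where 4.42% of all genes did (adjusted p under 0.05 in 0 genes by limma). *Tyrobp* had the largest estimate, higher in KO at the brachial level and lower in KO at the lumbar level (−0.71, 95% interval −1.54 to 0.11, adjusted p = 0.812 in limma). It passed the threshold when brachial KO library 3 (−0.92), lumbar Het library 3 (−0.91), or lumbar KO library 3 (−0.94) was left out, was nearest 0 without lumbar Het library 2 (−0.53), and passed together with *C1qb* (−0.65) when the sex of the embryo was a term (−0.85).

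Related genes were examined in 8 further lists of macrophage biology, which held 80 genes, 39 of them abundant enough to be tested between levels. The minimum was a mean of 0.5 TPM over the libraries compared. At the lumbar level 13 of the 39 were past the threshold and lower (5.97% of all genes were) and 2 were higher (4.4%). Of the 13, *Spi1*, *Cebpa*, *Runx1*, and *Ptprc* averaged under 0.5 at the lumbar level and entered the test through their higher brachial values. Of the 9 left, 8 had an adjusted p under 0.05. Between genotypes, 1 of 42 was past the threshold at the brachial level (*Sall1*, higher, 0.62, adjusted p = 0.359), where 3.1% of all genes were, and 1 of 33 at the lumbar level (*Hpgds*, a prostaglandin D synthase, higher, 0.64, adjusted p = 0.999), where 1.77% were. The interaction was past the threshold for 2 of 39, *Laptm5* (−0.93) and *Igf1* (−0.76), both with an adjusted p of 0.812, where 2.04% of all genes were past it. The genotype and interaction counts are near these shares.

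Of the ligands of the receptors named above, *Cx3cl1*, which encodes fractalkine, was lower at the lumbar level, 2.32 ± 0.35 against 4.53 ± 0.72 (SD, n = 6, log2 difference −0.93, adjusted p = 0.000648). Fractalkine is made by neurons, and its receptor *Cx3cr1* was lower there too. *Apoe*, a lipoprotein bound by Trem2, was also lower, 19.3 against 34.2 (−0.85, adjusted p = 0.0209). *Csf1*, a ligand of Csf1r, was at 1.63 against 1.74 and did not pass (−0.10), and *Il34* was too low to be tested, so 2 of 3 ligands tested were lower.

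Of the transcription factors, *Spi1*, *Cebpa*, and *Runx1* entered the fit through their brachial values and are given as levels with no test. *Spi1*, which encodes PU.1, was at 0.417 at the lumbar against 0.749 at the brachial level, *Cebpa* at 0.38 against 0.900, and *Runx1* at 0.0655 against 0.893, a factor that some neurons also express. *Sall1* (11.1 against 10.7) and *Maf* (9.96 against 11.2) did not pass, and both are expressed in neurons or progenitors of the cord as well as in macrophages.

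Among other microglia genes, *Ctss*, a lysosomal cysteine protease, was lower at 5.73 against 8.74 (−0.58, adjusted p = 0.0287), as was *Laptm5*, a lysosomal membrane protein of blood cells, at 1.09 against 1.88 (−0.74, adjusted p = 0.0245). *Tmem119*, a microglia surface protein, was at 0.991 against 0.678 and higher (0.51, adjusted p = 0.115). Of the leukocyte and myeloid genes listed, *Adgre1*, which encodes F4/80, was lower at 0.888 against 1.70 (−0.86, adjusted p = 0.0151), as was the Fc receptor *Fcgr3* at 1.03 against 1.79 (−0.79, adjusted p = 0.0397). *Ptprc*, which encodes CD45 and averaged under the minimum at the lumbar level, was at 0.471 against 0.713, with no test given. The 2 most abundant of that list, *Coro1a* (55.5 against 50.3) and *Cd68* (2.72 against 2.52), did not pass. *Coro1a* averaged 52.9 over 12 libraries, far above the rest of the list and every member, and which cells its RNA came from was not measured.

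Genes of the phagocytic state were divided, with 1 of 7 tested lower, *Spp1* (osteopontin) at 0.624 against 1.23 (−1.17, adjusted p = 0.0561), and 1 higher, the lipase *Lpl* at 2.54 against 1.31 (0.88, adjusted p = 0.00511). The cathepsins *Ctsd* (149 against 167) and *Ctsb* (34.7 against 40.2) differed by less than the fold threshold. Among complement partners of C1q, the C1 inhibitor gene *Serping1* was at 5.44 against 5.05, and *C3* was at 0.586 against 0.821 (−0.43, adjusted p = 0.111), and neither passed. The protease genes *C1ra* and *C1s1*, which complete the C1 complex, were under the minimum.

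Of 12 genes of border-associated and embryonic macrophages, 10 were under the minimum, *Cd163* and *Clec10a* were at 0 in every library, *Mrc1* averaged 0.304 and *Lyve1* 0.0361. The 2 that were tested, *Pf4* (4.58 against 3.28) and *Stab1* (2.32 against 2.67), were as abundant as the members and did not pass. All 8 monocyte and granulocyte markers were under the minimum, 3 of them (*S100a9*, *Ly6c2*, and *Elane*) at 0 in every library. The most abundant, *Ccr2* and *Mpo*, averaged 0.0616 and 0.0274, and the sum of the 8 stayed between 0.0486 and 0.424 in all 12 libraries. The monocyte and granulocyte markers are near 0 while the sum of the 10 macrophage genes was 15.6 or more.

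Other tissue markers moved with axial level. The 8 mesenchyme and pericyte markers summed to 91.2 to 122 in brachial and 62.8 to 85.8 in lumbar libraries, and 4 of the 6 tested were past the threshold and lower, *Pdgfra* (−1.47), *Pdgfrb* (−0.84), *Rgs5* (−0.81), and *Col1a2* (−0.64), with a median of −0.72 for the list. *Dcn*, the most abundant of them, was at −0.35. The 6 endothelial markers summed to 70.6 to 95 in brachial and 59.1 to 72.1 in lumbar libraries, and 1 of 6 was past the threshold, *Cldn5* (−0.61), with *Kdr* at −0.36 and a list median of −0.34. The 6 erythroid markers summed to 1948 to 5904 and 1935 to 4251, led by *Hbb-y* (−0.01) and *Hba-a1* (−0.18), with 0 of 6 past the threshold and a median of −0.08.

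The 6 motor neuron markers summed to 385 to 475 in brachial and 153 to 264 in lumbar libraries. *Prph* alone averaged 284 in brachial and 48.4 in lumbar libraries, so the difference of the sums follows that gene. Past the threshold and lower were 2 of 6, *Prph* (−2.62) and *Slc5a7* (−1.10), whereas *Chat* (0.16), *Mnx1* (0.25), and *Isl1* (0.09) were not. The 6 progenitor markers summed to 798 to 1028 and 1054 to 1366, with *Hes5* higher (0.52), *Olig2* lower (−0.73), and the most abundant, *Vim* (0.34) and *Nes* (0.42), not past the fold threshold. Whether these marker differences have a part in the difference of the macrophage genes was not tested. Between genotypes, all 6 erythroid estimates were above 0 at both levels (medians 0.49 and 0.58, with *Hba-x* past the threshold at the lumbar level, 0.69), and *Prph* was lower in lumbar KO (−0.78).

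**Figure D5:**
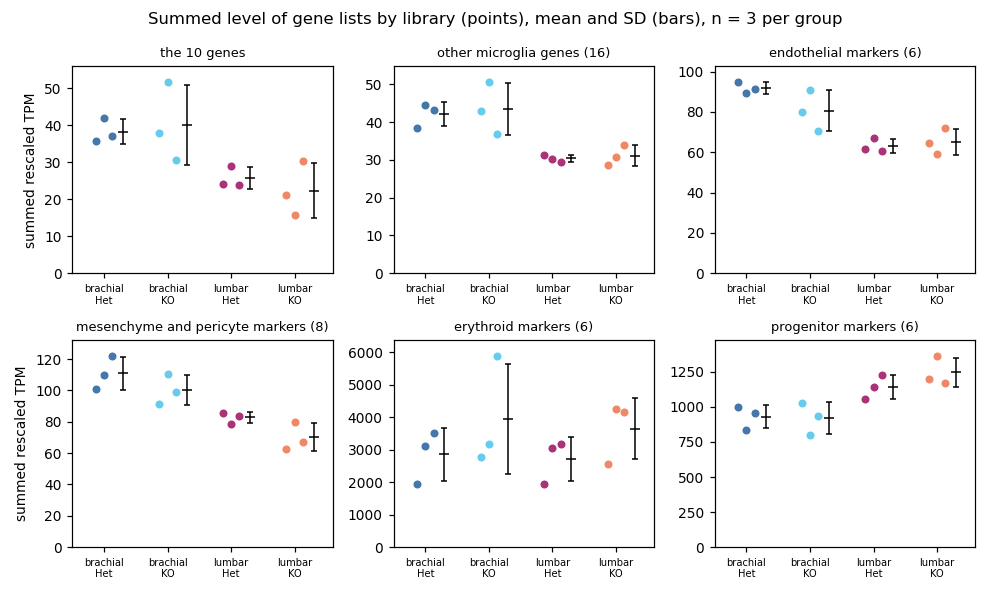
Summed rescaled TPM of 6 gene lists by library, one panel per list, with level and genotype on the horizontal axis. Points are libraries and bars give the mean and SD of 3 libraries. The 10 macrophage genes and the mesenchyme and pericyte markers separate the 2 levels without overlap, the endothelial sums nearly so, the progenitor sums run in the opposite direction, and the erythroid sums overlap.

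The 10 genes varied together among the 12 libraries to different degrees. The correlation of each gene with the mean of the other members was highest for *C1qc* (Pearson r = 0.97), *Csf1r* (0.95), *Fcrls* (0.93), *Cx3cr1* (0.92), and *C1qa* (0.91), and lowest for *Trem2* (0.67) and *Aif1* (0.46). With group means subtracted, it was 0.94 for *C1qc* and 0.89 for *C1qa*, and 0.41 for *C1qb* and 0.38 for *Aif1*. The 12 libraries come from 2 axial levels and differ in depth, and these values are a description.

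Outside the list, the pattern over 12 libraries most like that of the mean of the 10 genes was that of *Cdh18*, a cadherin gene (r = 0.97), and among the next most similar were *Itgb5*, *Snx13*, *Luzp2*, *Necab1*, *Slc1a1*, *Dpp10*, *Trhde*, and *Grm5* (r = 0.95 to 0.96). With group means subtracted, the 5 most like were *Gabra5* (0.96), *Cdh18* (0.95), *Itm2a* (0.95), *Trhde* (0.94), and *Marchf1* (0.93). Of these, *Slc1a1*, *Grm5*, and *Gabra5* encode a neuronal glutamate transporter, a glutamate receptor, and a GABA receptor subunit. All of the genes named here had a lower mean at the lumbar level, which is part of what the r over 12 libraries measures. By that r, 16726 genes outside the list were ranked. The myeloid transcription factors, other microglia genes, border macrophage genes, and leukocyte genes supplied 26 of them, and 1 of the 26 was in the top 100.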

How the data were processed

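Total RNA, depleted of ribosomal RNA, was sequenced from 12 libraries. Per the labels, the authors used FastQC 0.11.7, Trimmomatic 0.38, HISAT2 2.1.0, Bowtie2 2.3.4.1, and StringTie 2.1.3b with the mm10 genome, and RNA integrity was uniformly high. The deposited TPM values came from StringTie, as did the deposited FPKM and coverage values (mean per-base signal), with 1 table per library. The tables hold no counts, so no count test was run and counting error is unknown. Depth was taken as the constant ratio of coverage to FPKM in single-transcript genes. Symbols came from RefSeq (GRCm38.p6), which named 45679 of 45777 identifiers.

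TPM was divided by median-of-ratios size factors over 12 libraries and log2-transformed after adding 0.1. Genes averaging 0.5 TPM or more, all 10 members among them, entered a linear model in limma 3.58.1 (lmFit, eBayes with trend; R 4.3.3). A log2 difference on this scale understates the change of low genes. Genotypes were compared within each level, levels over 12 libraries with genotype as a term, and the genotype effects between levels as an interaction. The threshold was a log2 difference beyond 0.5 together with p under 0.05 before adjustment. Adjusted values are Benjamini-Hochberg over all genes tested. The members and lists were chosen with earlier results of these data known. Named genes are the members, the 2 most abundant genes of each other list and every list gene past the threshold, the genes whose log2 values correlate most with the members' mean z-score (10 as they are, 5 with group means subtracted), and *Isl2*. Genes under the minimum, and *Csf1*, *Maf*, *C3*, *Chat*, *Mnx1*, and *Ddx3y*, were named for context after their values were seen. Some genes that this rule selects are not reported here. The fits were tested on simulated data. Python 3.11.15, pandas 2.3.3, and matplotlib 3.10.9 were used for tables and plots.

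The alternatives tried were no filter, a minimum of 1, pseudocounts of 0.01 and 1, TPM as deposited, quantile normalization, size factors from protein-coding genes, coverage, no trend, all libraries in one fit, each genotype alone, a replicate block, and leaving out each library. The sex of the embryo as a term and leaving out both KO libraries numbered 2 were added after seeing the data.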

Additional observations from a re-analysis of the deposited data

How the results depend on the processing

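The count of 7 genes lower at the lumbar level stayed at 5 to 8 under all alternatives run, and every estimate kept its sign except *Tyrobp* among Het libraries (0.069). TPM as deposited put the median of all genes at −0.13, the median of the members at −0.88, and the split of all genes at 9.57% lower and 2.77% higher instead of 5.97% and 4.4%. A mean TPM of at least 1 left 9 members tested in the lumbar genotype comparison. Without each library in turn, the counts past the threshold ranged from 0 to 1 between genotypes at the brachial level, 0 to 2 at the lumbar level, and 0 to 1 for the interaction. With the sex of the embryo as a term, the count was 2 at the lumbar level and 2 for the interaction. The cause was not tested. Counting error is unknown, so depth limits cannot be stated.

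Deviations of same-numbered libraries from their group means were at most weakly correlated (r from −0.22 to 0.34, over brachial and lumbar libraries of a genotype and over genotypes of a level). For the brachial and lumbar pairs of matching sex, r was 0.20 (Het number 2), 0.34 (Het number 3), and 0.03 (KO number 1). Whether these pairs share an embryo is not stated. With the replicate block, 7 members were lower at the lumbar level, 6 of them with an adjusted p under 0.05 (limma), and 0 were past the threshold in the other comparisons. Between levels this block joins libraries of different sex in 1 Het and 2 KO pairs, so it is not a pairing by embryo.

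Signs changed mainly between genotypes, where no estimate passed. At the brachial level, *Aif1* was 0.0098, *C1qa* 0.039, and *C1qc* 0.11 with TPM as deposited, *Trem2* −0.014 and *Fcrls* −0.042 with quantile normalization, and *Fcrls* −0.022 with coverage. At the lumbar level *Aif1* was −0.30 with sex as a term, and the interaction of *C1qc* was 0.0019 with quantile normalization. Without each library in turn, brachial estimates ranged from −0.10 to 0.28 for *Cx3cr1*, −0.15 to 0.31 for *Csf1r*, −0.41 to 0.15 for *P2ry12*, −0.38 to 0.50 for *Trem2*, −0.42 to 0.048 for *C1qa*, −0.016 to 0.40 for *C1qb*, −0.31 to 0.17 for *C1qc*, and −0.21 to 0.14 for *Fcrls*. Lumbar estimates ranged from −0.38 to 0.18 for *Cx3cr1*, −0.30 to 0.035 for *Csf1r*, −0.27 to 0.46 for *Aif1*, −0.078 to 0.29 for *P2ry12*, −0.49 to 0.17 for *Trem2*, −0.47 to 0.18 for *C1qc*, and −0.36 to 0.13 for *Fcrls*. Interaction estimates ranged from −0.46 to 0.10 for *Cx3cr1*, −0.42 to 0.043 for *Csf1r*, −0.11 to 0.61 for *Aif1*, −0.059 to 0.50 for *P2ry12*, −0.71 to 0.16 for *Trem2*, −0.40 to 0.24 for *C1qc*, and −0.37 to 0.11 for *Fcrls*.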
